A study of Mus musculus with 30 samples.

Results

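Genes of the neurotrophin system, 7 in all, were followed in the mouse hippocampus after Social Isolation (SI): the ligand genes Bdnf and Ntf3, the Trk receptor genes Ntrk2 and Ntrk3, the p75 receptor gene Ngfr, the sorting receptor gene Sort1 and Vgf, a neuropeptide precursor gene that neurotrophins induce. They were taken by name from the 17477 genes of the raw count table, and all 7 were found and passed the filter on low counts in both sexes. The 30 libraries were whole-hippocampus RNA-seq of adult C57 BL/6J mice, 1 library per mouse, with no transgene and no drug. SI mice were kept singly from weaning until adulthood, and Group Housed (GH) mice shared cages with others over the same time. The groups held 8 SI females, 7 GH females, 7 SI males and 8 GH males, and individual mice are named here by the animal number in their labels. Mice that shared a cage are not named in the labels, so GH mice were treated as separate samples.

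Neurotrophins are secreted proteins that are made as longer precursors and cut by proteases. The mature forms bind Trk receptor tyrosine kinases, BDNF mostly TrkB (the product of Ntrk2) and NT-3 mostly TrkC (the product of Ntrk3), and start the MAP kinase, PI3 kinase and phospholipase C pathways, while the precursors bind p75 (Ngfr) together with sortilin (Sort1). In the hippocampus BDNF and TrkB are known for their part in synaptic plasticity, and TrkB is made by neurons as the full-length kinase and by astrocytes mostly as a truncated form without the kinase.

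Levels are given in CPM, the read counts of a gene brought to a common library size by trimmed-mean (TMM) scaling. Differences are given as the log2 fold change (Log2FC) of SI against GH from edgeR's quasi-likelihood test fitted over all genes of a sex, with estimated batch covariates (surrogate variables), 3 in females and 2 in males, and Benjamini-Hochberg adjusted p-values, called here edgeR adjusted p. A gene passed the test at an adjusted p under 0.05. Across all genes the test called 624 of 16026 in females (3.89%) and 0 of 15833 in males (0%), where the lowest adjusted p was 0.295 and 13.0% of genes had an unadjusted p under 0.05. Library totals ranged from 18809307 to 100844898 counts. Of the markers checked, those of hippocampal neurons and glia were found in every library, while the summed level of 10 choroid plexus markers ranged from 45.5 to 5070 CPM. SI males 25, 33 and 39 stood apart from the other 27 libraries, with low levels of genes with long transcripts. Their length index, the log2 CPM deviation of 2798 genes with transcripts of at least 5000 bases minus that of 2386 genes under 1500 bases, was -1.33, -1.27 and -1.01, and in the other libraries it lay between -0.37 and 0.50. Male values of the named genes are therefore given with and without these 3 mice. Each fit that left out mice estimated the surrogate variables, and their number, anew.

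Of the 7 genes, 1 was called in females, against 3.89% of all genes tested, and none was called in males. Ntrk2 was lower in SI females. The other 6 genes did not pass the adjusted test in females, with Log2FC between -0.05 and 0.18, of which Bdnf (0.17) and Vgf (0.18) had an unadjusted p under 0.05, a level that 20.2% of all genes reached. In males the Log2FC ran from -0.14 for Ntrk2 to 0.30 for Vgf. The median Log2FC over all genes tested was 0.01 in females and 0.00 in males.

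**Figure D1:**
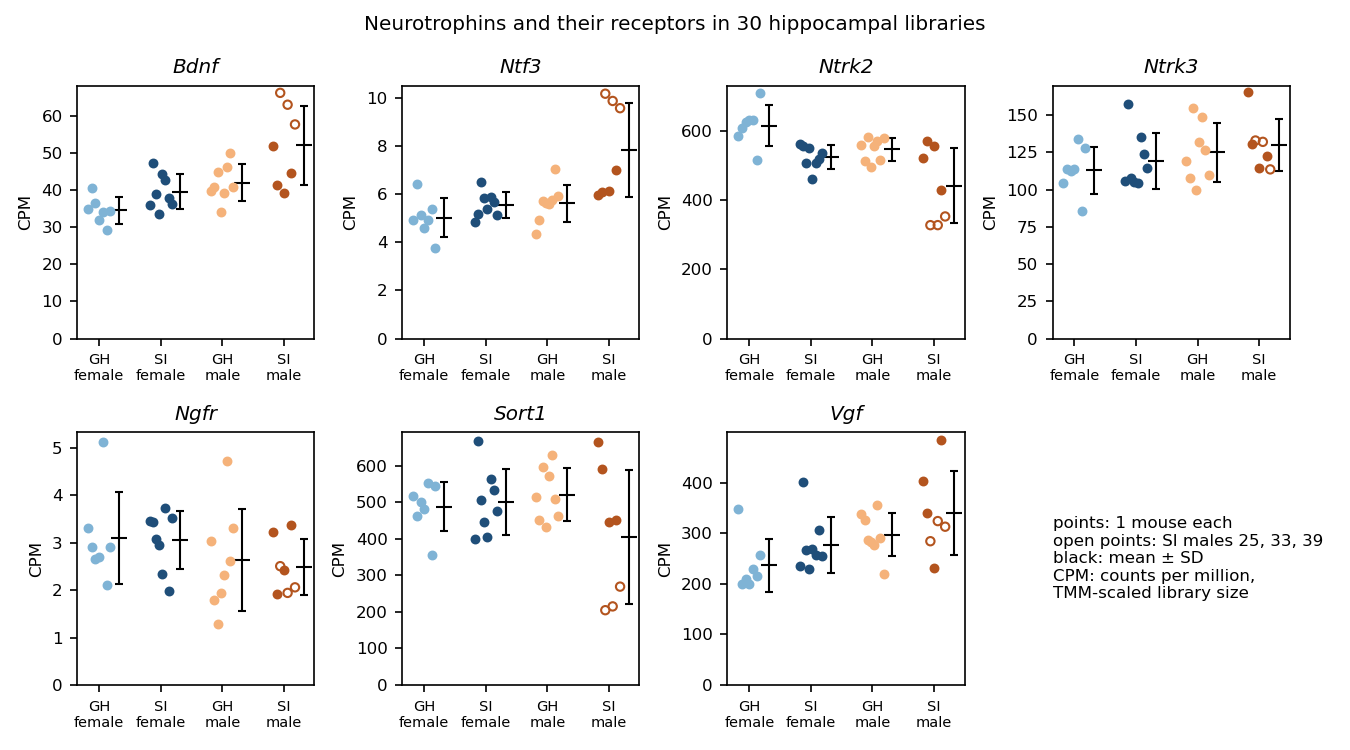
CPM of each of the 7 genes (y axis, from 0) by group (x axis), with 1 point per mouse and a black dash with bars for the group mean ± 1 SD. SI males 25, 33 and 39 are drawn as open points. For Ntrk2, 6 of the 7 GH females lie above the highest SI female (562 CPM), and the 3 open points are the lowest of all mice.

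The ligand gene Bdnf encodes brain-derived neurotrophic factor, which is released by neurons with activity. In NCBIM37 it lies on chromosome 2 at 109514857-109567204 on the plus strand, with a longest coding transcript of 4265 bases. RefSeq lists 7 start windows for Bdnf in GRCm38.p6, and the counts, being summed over the gene, do not tell these starts apart. The windows with the most and the fewest CG pairs are shown, each as the 250 bases before the start with CG in capitals, to show how unlike the promoters are that the single Bdnf value sums over. They hold 13 and 1 CG pairs, against a median of 6 over 32851 such windows.

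Bdnf, chr2:109694159-109694408, plus strand, GRCm38.p6: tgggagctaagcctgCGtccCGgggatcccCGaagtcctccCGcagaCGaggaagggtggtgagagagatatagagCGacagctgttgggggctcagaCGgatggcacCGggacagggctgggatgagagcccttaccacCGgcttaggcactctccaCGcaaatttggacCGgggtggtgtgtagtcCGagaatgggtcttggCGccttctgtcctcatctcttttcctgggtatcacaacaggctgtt

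Bdnf, chr2:109709133-109709382, plus strand, GRCm38.p6: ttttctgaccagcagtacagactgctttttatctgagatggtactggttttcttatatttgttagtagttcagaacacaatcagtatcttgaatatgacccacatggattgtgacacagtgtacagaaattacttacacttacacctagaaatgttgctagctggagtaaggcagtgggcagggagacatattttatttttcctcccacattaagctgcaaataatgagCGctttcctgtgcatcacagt

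The exact sequence TGACGTCA, the full palindrome of the cyclic AMP response element, was in 1.79% of all windows. It was in 0 of the 11 windows found for Bdnf, Ntf3, Ngfr and Ntrk2. Variants of the element were not searched for, so these counts do not show that the promoters lack one. The Bdnf window at chr2:109692186-109692435, for example, holds the near match TCACGTCA.

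In SI females Bdnf ranged from 33.4 to 47.2 CPM with a median of 38.3, and in GH females from 29.2 to 40.5 with a median of 34.5. The groups overlapped, with 7 of 8 SI females above the GH median and 3 above the highest GH female. The means were 39.5 ± 4.75 (SD, n = 8) and 34.5 ± 3.56 (SD, n = 7) CPM, a Log2FC of 0.17 (SE 0.0746) that did not pass the test (edgeR adjusted p = 0.1995). In SI males Bdnf ranged from 39.2 to 66.1 CPM (median 51.9) and in GH males from 34.0 to 50.0 (median 40.8). The means were 52 ± 10.7 (SD, n = 7) and 41.9 ± 4.96 (SD, n = 8), with a Log2FC of 0.14 (SE 0.0999, edgeR adjusted p = 0.557). The high SI males were those that stood apart: mice 25, 33 and 39 gave 57.6 to 66.1 CPM and the other 4 SI males 39.2 to 51.9, and without the 3 the Log2FC was 0.00 (SE 0.0859).

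Ntf3 encodes neurotrophin-3, the ligand of TrkC (chromosome 6 at 126051431-126116762, minus strand, NCBIM37). Its level was low, at 3.77 to 6.51 CPM over all females. SI females spanned 4.84 to 6.51 CPM (median 5.54) and GH females 3.77 to 6.43 (median 4.95), and the groups overlapped. The Log2FC was 0.12 (SE 0.0975, edgeR adjusted p = 0.549). Among males the separation was wider, since 7 of the 8 GH males lay below the lowest SI male. SI males ranged from 5.97 to 10.2 CPM (median 7.02) and GH males from 4.34 to 7.07 (median 5.68). The Log2FC of 0.25 (SE 0.105) had an unadjusted p of 0.0293 and did not pass the adjusted test (edgeR adjusted p = 0.354). SI males 25, 33 and 39 held 9.59 to 10.2 CPM, against 5.97 to 7.02 in the other 4, and without them the Log2FC was 0.17 (SE 0.130, edgeR adjusted p = 0.905). Leaving out SI male 27 instead gave 0.33, which passed (edgeR adjusted p = 0.044). That fit called 2413 of all genes, against 0 with all males.

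Ntrk2 encodes TrkB, the receptor of BDNF. It lies on chromosome 13 at 58907957-59235331 on the plus strand in NCBIM37, and its longest coding transcript, of 8541 bases, is the longest of the 7 genes. Its RefSeq window in GRCm38.p6 is shown because Ntrk2 was the gene called in females. The 250 bases before the start, with CG in capitals, hold 19 CG pairs, and 19.7% of all windows hold as many or more.

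Ntrk2, chr13:58806319-58806568, plus strand, GRCm38.p6: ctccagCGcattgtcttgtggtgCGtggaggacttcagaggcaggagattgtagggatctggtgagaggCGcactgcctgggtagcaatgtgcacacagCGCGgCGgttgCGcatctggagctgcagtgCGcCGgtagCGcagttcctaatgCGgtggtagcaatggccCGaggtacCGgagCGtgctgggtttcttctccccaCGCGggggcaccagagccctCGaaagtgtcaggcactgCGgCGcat

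In SI females Ntrk2 ranged from 461 to 562 CPM with a median of 529, and in GH females from 518 to 711 with a median of 627. All 8 SI females lay below the GH median, and 6 of the 7 GH females lay above the highest SI female, so that the overlap came from GH female 78 (518 CPM), the lowest of the GH group. The means were 525 ± 33.6 (SD, n = 8) and 616 ± 58.2 (SD, n = 7) CPM. The Log2FC was -0.20 (SE 0.0490), which passed the test (edgeR adjusted p = 0.0347). The call was lost when any 1 of 9 of the 15 females was left out and the surrogate variables were estimated anew. For SI females 53, 45, 49, 73, 63 and 68 the edgeR adjusted p of the fit that lacked the mouse was 0.0506, 0.0594, 0.0699, 0.075, 0.113 and 0.126 in that order. For GH females 48, 71 and 54 it was 0.0672, 0.0674 and 0.0889, and the Log2FC stayed between -0.22 and -0.16 over these 9 fits. In edgeR without surrogate variables the Log2FC was -0.23 and the call was also lost (edgeR adjusted p = 0.121). The call was kept by the DESeq2 and limma-voom tests without surrogate variables.

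In males Ntrk2 spread more widely. SI males ranged from 328 to 573 CPM (median 430) and GH males from 495 to 582 (median 558), with means of 442 ± 109 (SD, n = 7) and 547 ± 33.9 (SD, n = 8). Of the 7 SI males, 4 lay below the lowest GH male. The Log2FC of -0.14 (SE 0.0676) did not pass the test (edgeR adjusted p = 0.384). Mice 25, 33 and 39 held 328 to 353 CPM and the other 4 SI males 430 to 573, and without the 3 the Log2FC was 0.00 (SE 0.0479, edgeR adjusted p = 1). Leaving out SI male 27 instead gave a Log2FC of -0.25 that passed the test (edgeR adjusted p = 0.0147), in a fit that called 2413 of all genes.

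Markers of astrocytes, which also express Ntrk2, moved in the same direction. Their summed level (6 genes, none at 0 in any library) was 3540 to 4870 CPM in SI females and 4150 to 5790 in GH females, with means of 4220 and 5230 (exact permutation test, two-sided p = 0.00326). All 6 had a Log2FC below 0 in females, as had 47.2% of all genes, and 3 were called: Slc1a2 (-0.28), the main glutamate transporter of astrocytes, Slc1a3 (-0.24) and Aldh1l1 (-0.27). In males the sums were 2380 to 4690 and 3950 to 5350 CPM (exact permutation test, two-sided p = 0.00979), and without SI males 25, 33 and 39 the difference was -606 CPM (exact permutation test, two-sided p = 0.121). The part of the astrocyte markers in the Ntrk2 result was not tested, and in whole tissue fewer cells of a type and less RNA per cell cannot be told apart. Of the other marker lists, the endothelial sum (5 genes, none at 0) was higher in SI mice of both sexes, with means of 158 against 134 CPM in females (exact permutation test, two-sided p = 0.00326) and 196 against 156 in males (exact permutation test, two-sided p = 0.0225). Without SI males 25, 33 and 39 the male endothelial means were 173 and 156 CPM (exact permutation test, two-sided p = 0.269).

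Ntrk3 encodes TrkC, the receptor of NT-3 (chromosome 7 at 85337248-85723294, minus strand, NCBIM37). SI females held 104 to 157 CPM (median 111) and GH females 85.4 to 134 (median 114). The groups were intermixed, with 4 of 8 SI females on each side of the GH median. The Log2FC was 0.08 (SE 0.0654, edgeR adjusted p = 0.51). In males the ranges were 114 to 166 CPM (median 131) under SI and 99.9 to 154 (median 123) under GH. The male Log2FC was 0.09 (SE 0.109, edgeR adjusted p = 0.737), and -0.01 (SE 0.0594) without SI males 25, 33 and 39. Mice 25, 33 and 39 did not stand apart at Ntrk3, at 114 to 133 CPM.

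Ngfr encodes p75, which in the adult forebrain is known mainly from cholinergic neurons (chromosome 11 at 95430132-95449049, minus strand, NCBIM37). It had the lowest level of the 7 genes. SI females held 1.99 to 3.74 CPM (median 3.25) and GH females 2.10 to 5.13 (median 2.91), where GH female 71 alone was above 3.31. The Log2FC was -0.05 (SE 0.122, edgeR adjusted p = 0.866). SI males held 1.92 to 3.37 CPM (median 2.43) and GH males 1.28 to 4.72 (median 2.47), so the SI range lay inside the GH range. The male Log2FC of 0.24 (SE 0.196, edgeR adjusted p = 0.604) had the opposite sign to the ratio of mean CPM (2.49 against 2.63), and it was -0.07 without surrogate variables and 0.06 (SE 0.231) without SI males 25, 33 and 39. The direction of Ngfr in males was therefore not settled. Forebrain cholinergic markers in the table (3 genes) summed to between 0.441 and 6.39 CPM per library, and 2 of them had 0 counts in some libraries.

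Sort1 encodes sortilin, which sorts BDNF into the secretory pathway and joins p75 at the cell surface (chromosome 3 at 108087009-108164429, plus strand, NCBIM37). Females of both groups held like levels, with 399 to 668 CPM (median 491) under SI and 355 to 553 (median 500) under GH. The Log2FC was 0.03 (SE 0.0482, edgeR adjusted p = 0.779). SI males fell into separate levels. Mice 25, 33 and 39 held 205 to 269 CPM and the other 4 SI males 447 to 665, while GH males held 432 to 631 (median 511). The Log2FC was -0.05 (SE 0.0627, edgeR adjusted p = 0.725) with 2 surrogate variables, -0.36 (SE 0.229) with none, and -0.06 (SE 0.0355) without the 3 mice.

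Vgf encodes a precursor of secreted peptides whose transcription rises with neurotrophin signalling (chromosome 5 at 137506165-137509221, plus strand, NCBIM37). SI females ranged from 230 to 401 CPM (median 262) and GH females from 199 to 347 (median 215). All 8 SI females lay above the GH median, and 5 of 7 GH females lay below the lowest SI female. SI female 45 (401) and GH female 46 (347) stood far above their own groups, whose next values were 307 and 257. The means were 277 ± 55.2 (SD, n = 8) and 237 ± 52.5 (SD, n = 7) CPM, and the Log2FC was 0.18 (SE 0.0588) with an unadjusted p of 0.00825, which did not pass the adjusted test (edgeR adjusted p = 0.1004). Leaving out GH female 46 gave a Log2FC of 0.34 that passed (edgeR adjusted p = 0.0406).

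In males Vgf ranged from 231 to 484 CPM (median 324) under SI and from 219 to 355 (median 288) under GH. The groups overlapped, with 2 SI males above the highest GH male. The Log2FC was 0.30 (SE 0.139, edgeR adjusted p = 0.375). It was -0.13 (SE 0.0635, edgeR adjusted p = 0.798) without SI males 25, 33 and 39, although these 3 were not the highest SI males, at 284 to 324 CPM. Leaving out SI male 27 gave 0.42, which passed the test (edgeR adjusted p = 0.016) in the fit that called 2413 of all genes.

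**Figure D2:**
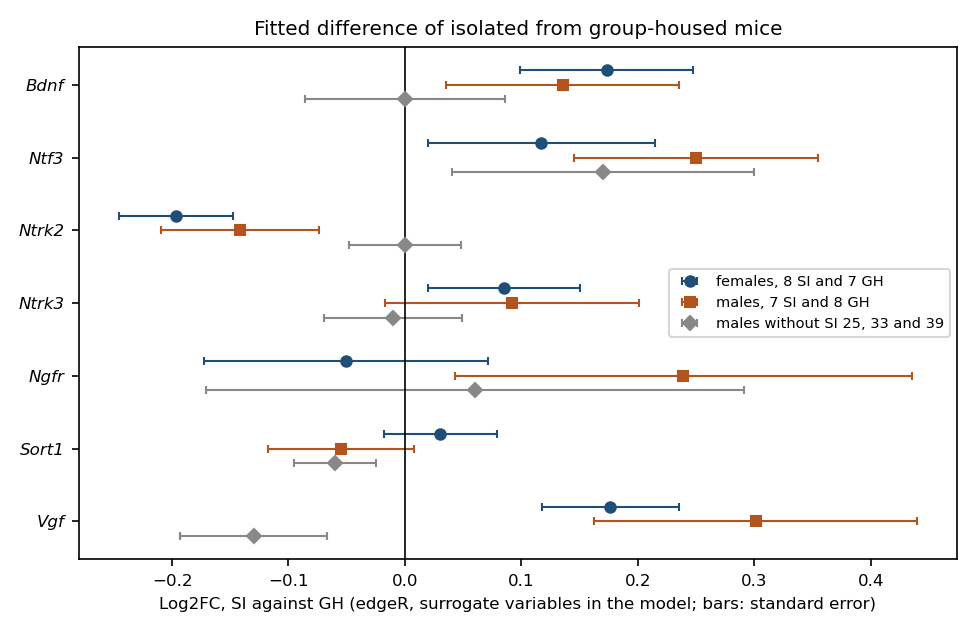
Log2FC of SI against GH (x axis, log2 scale, bars of 1 SE) for the 7 genes (y axis) in females, in males and in males without SI males 25, 33 and 39. Ntrk2 in females (-0.20) is the value that passed the adjusted test, and the male value for Ntrk2 moves from -0.14 to 0.00 without the 3 mice.

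**Figure D3:**
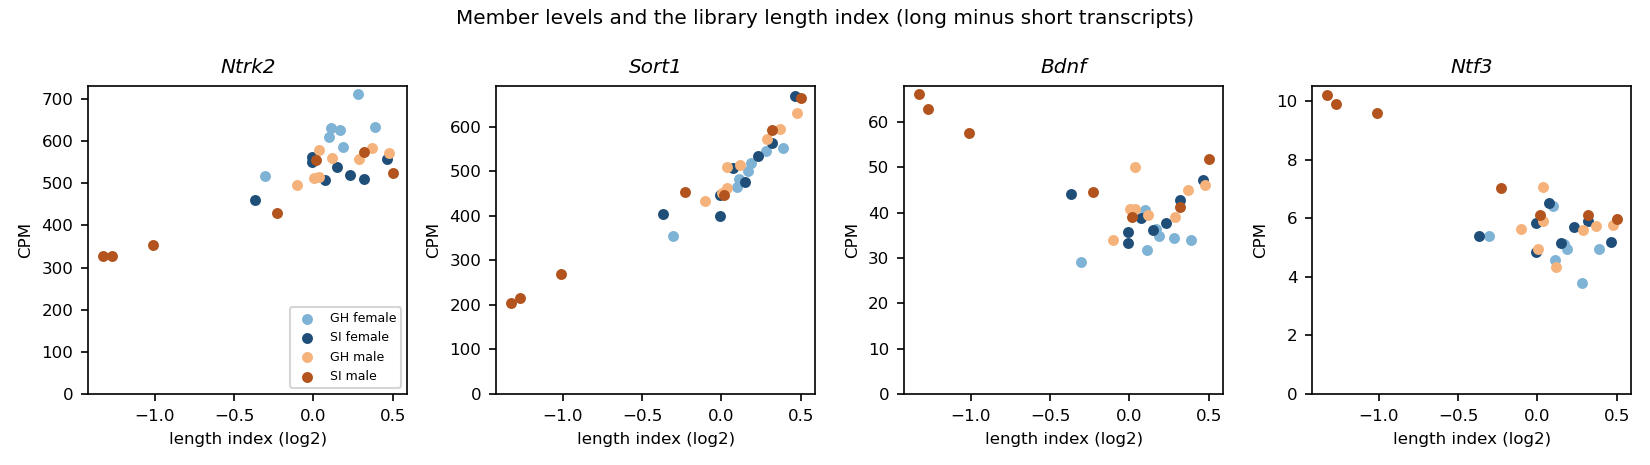
CPM (y axis, from 0) against the length index of each library (x axis, log2 units) for 4 of the genes, with 1 point per mouse coloured by group. SI males 25, 33 and 39 sit at -1.33, -1.27 and -1.01 on the x axis, apart from the other libraries, with low Ntrk2 and Sort1 and high Bdnf and Ntf3.

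Whether the response to isolation differed between the sexes was tested as the interaction of sex and housing in a fit of all 4 groups with 4 surrogate variables. None of the 7 genes passed, nor did any of the 16391 genes tested (0%), and the edgeR adjusted p of the 7 lay between 0.749 and 0.996. For Ntrk2 the female minus male difference in Log2FC was -0.11 (SE 0.0708), and -0.18 (SE 0.0669, edgeR adjusted p = 0.44) without SI males 25, 33 and 39. For Vgf it was -0.05 (SE 0.176), and 0.21 (SE 0.0768, edgeR adjusted p = 0.44) without them. A difference in response between females and males was therefore not detected at the adjusted threshold for any of these genes. With all 30 mice none of the 7 had an unadjusted p under 0.05, which 7.49% of all genes reached. Without SI males 25, 33 and 39 the unadjusted edgeR p was 0.0125 for Ntrk2 and 0.0127 for Vgf. For the other genes it was at least 0.215.

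Levels also differed by sex among GH mice, which is a comparison of females with males in the same fit. Ntrk2 was higher in GH females than in GH males (616 ± 58.2 against 547 ± 33.9 CPM, Log2FC 0.19, SE 0.0482, edgeR adjusted p = 0.0226). Bdnf was lower in GH females (34.5 ± 3.56 against 41.9 ± 4.96 CPM, Log2FC -0.29, SE 0.0894, edgeR adjusted p = 0.0461). These were 2 of the 7 genes, against 6.39% of all genes called. Vgf had the largest difference, -0.39 (SE 0.121), and lay just outside the threshold (edgeR adjusted p = 0.05001), while Ntf3 (-0.19), Ntrk3 (-0.17), Sort1 (-0.11) and Ngfr (0.04) did not pass. Without SI males 25, 33 and 39, which entered this fit only through its shared spread and surrogate variables, neither call held: the Log2FC was 0.16 for Ntrk2 (edgeR adjusted p = 0.0991) and -0.19 for Bdnf (edgeR adjusted p = 0.294). With each mouse left out in turn, the Bdnf call was lost in 16 of 30 fits, at an edgeR adjusted p of 0.0519 to 0.117. These lacked GH females 47, 48, 54, 71, 78 and 79, SI females 41, 45, 53 and 73, GH males 1, 2, 3, 22 and 23 or SI male 7. The Ntrk2 call was lost in 4, those without GH females 47 and 54, SI female 73 and GH male 3, while Vgf passed in 13. With all mice, the astrocyte markers were also higher in GH females, with a Log2FC from 0.11 for Gja1 to 0.36 for Aldh1l1. Aldh1l1 (edgeR adjusted p = 0.00558) and Gfap (0.32, edgeR adjusted p = 0.0384) were called. The part of these markers in the Ntrk2 sex difference was not tested.

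Per kilobase of longest coding transcript the 7 genes kept nearly 1 order. Vgf was the most abundant (113 ± 26.2 CPM per kb, SD, n = 30), followed by Sort1 (70.7 ± 16.7), Ntrk2 (62.4 ± 10.1), Ntrk3 (36.9 ± 5.54), Bdnf (9.82 ± 2.06), Ntf3 (4.2 ± 1.06) and Ngfr (0.819 ± 0.244). Vgf was above Sort1, Ntrk3 above Bdnf, Bdnf above Ntf3 and Ntf3 above Ngfr in 30 of 30 libraries, and Ntrk2 above Ntrk3 in 28. Sort1 and Ntrk2 did not differ beyond their spread, Sort1 being the higher in 21 of 30. Ntrk2 was thus measured at a higher level per kb than Bdnf in these libraries. Its count is summed over the gene and does not tell full-length TrkB from the truncated form.

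The genes whose log2 CPM followed each of the 7 most closely across the 30 mice, after centring on group means, are given as a description. These libraries share the length shift of 3 SI males, so each correlation is also given without these mice and, with all 30 mice, after removal of the surrogate variables of the 4-group fit, in that order. For Ntrk2 the closest was Slc4a4, a bicarbonate transporter gene of astrocytes, at r = 0.97 (then 0.94 and 0.93), followed by Aldh5a1 at 0.97 (0.93 and 0.85) and Gnal at 0.96 (0.90 and 0.82). For Bdnf it was Lgi1, which encodes a secreted synaptic protein, at 0.90 (0.84 and 0.87), and then Ppp3ca at 0.84 (0.79 and 0.82) and Lpl at 0.83 (0.77 and 0.79). Ntrk3 was closest to Grin2b, an NMDA receptor subunit gene, at 0.96 (0.97 and 0.94), Sort1 to Nt5dc3 at 0.99 (0.97 and 0.84), and Vgf to Ddx54 at 0.94 (0.96 and 0.92). The closest genes to Ngfr and Ntf3 followed them less closely once the surrogate variables were removed. They were Kif9 for Ngfr, at 0.82 (0.85 and 0.58), and Hemk1 for Ntf3, at 0.81 (0.61 and 0.53).

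Other genes of the pathway were taken from a list of 127, of which 126 were in the table and 125 were tested. In females 11 of the 125 (8.80%) were lower and 2 (1.60%) higher, against 2.93% and 0.961% of all genes. Their median Log2FC was 0.00, as against 0.01 over all genes. In males 0 of 125 were called in either direction (0% of all genes), with a median of -0.06.

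Genes that handle and secrete the ligands were called in both directions in females, with 2 of 11 lower and 1 higher. Cpe (-0.20, edgeR adjusted p = 0.01015) encodes carboxypeptidase E, which trims and sorts proneuropeptides and proBDNF, and fell from 3910 ± 281 (SD, n = 7) to 3360 ± 246 (SD, n = 8) CPM. Scg3 (-0.20, edgeR adjusted p = 0.00945) and Scg2 (0.18, edgeR adjusted p = 0.03194) encode granins of the dense-core vesicles. Of the cleaving proteases 1 of 13 was lower, the proprotein convertase gene Pcsk6 (-0.24, edgeR adjusted p = 0.02635). None of the 2 other ligand genes was called, and Ntf5, which encodes neurotrophin-4, a further ligand of TrkB, had a Log2FC of 0.47 (edgeR adjusted p = 0.1716) at under 1 CPM. None of 10 p75 partner genes was called in females, Maged1 having the smallest p (0.11, edgeR adjusted p = 0.1017).

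Downstream of the Trk receptors 3 of 25 adaptor genes were lower in females: Frs2 (-0.16), the docking protein that binds the activated receptor, Gab2 (-0.23), which links it to PI3 kinase, and Rapgef1 (-0.21), an exchange factor for RAP1. Of 29 kinase cascade genes 2 were lower, Camk2a (-0.24, edgeR adjusted p = 0.01971), the calcium-dependent kinase of the postsynapse, and Mapk3 (-0.14, edgeR adjusted p = 0.04478), which encodes ERK1. Of 15 genes for regulators of Bdnf transcription 3 were lower, among them Arnt2 (-0.24), the partner of NPAS4, and Crtc1 (-0.19), a coactivator of CREB. Arnt2 had the smallest p of the whole list in both sexes: SI females held 232 to 285 CPM and GH females 285 to 351 (edgeR adjusted p = 0.00855), so that the groups touched only at their ends. Of 20 genes induced by activity and Trk signalling 1 was called in females, Npy (0.15, edgeR adjusted p = 0.03508), a neuropeptide gene that rose from 35.7 ± 3.85 (SD, n = 7) to 40.8 ± 3.9 (SD, n = 8) CPM.

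The 13 female calls depended on single mice and on the covariates. In edgeR without surrogate variables 0 were lower and 0 higher. The DESeq2 and limma-voom tests without surrogate variables still called pathway genes in both directions. With 1 female left out the count of lower genes fell below 8 without SI 68 (1), SI 45, SI 63 and GH 54 (3 each), SI 49, SI 73 and GH 48 (4 each), SI 53 and GH 71 (7 each), and rose to 18 without GH 78. The count of higher genes was 0 without SI 45, 49, 63 and 68 and GH 48, 54 and 71, 1 without SI 53 and 73, 4 without GH 46, 5 without GH 78 and 6 without SI 52. Calls over all genes moved too, from 88 without SI 68 to 1428 without GH 78. They numbered 146, 169 and 226 without SI 45, SI 63 and GH 54, and 272, 288 and 290 without GH 48, SI 49 and SI 73. They numbered 440, 620, 945 and 1017 without GH 71, SI 53, GH 46 and SI 52, against 624 with all females.

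In males the activity and Trk induced genes had values mostly below 0, in 16 of 20 against 50.7% of all genes, with a median Log2FC of -0.17. At an unadjusted p under 0.05, 10 of the 20 were lower and 0 higher, where 7.38% of all genes were lower. None passed the adjusted test. Fosb, an immediate early transcription factor gene and the one with the smallest p, held 3.73 to 10.5 CPM in SI males (median 6.18) and 8.22 to 11.1 in GH males (median 8.81), a Log2FC of -0.38 (SE 0.0890, edgeR adjusted p = 0.295). Fos and Egr2, named after their values were seen, had a Log2FC of -0.87 (SE 0.290) and -1.43 (SE 0.373). With SI males 25, 33 and 39 left out the values were -0.34 for Fosb, -0.82 for Fos and -0.97 for Egr2. SI males held 2.38 to 11.5 CPM of Fos and GH males 6.2 to 19.3. Without SI males 25, 33 and 39 the count was 8 of 20 lower with a median of -0.25, where 3.37% of all genes were lower. In females 0 of the 20 were lower and 5 higher at the unadjusted level, where 9.29% of all genes were higher. Mean Fos was 14.5 CPM in GH males, 7.72 in SI males, 7.51 in GH females and 7.14 in SI females. In the same order the means were 9.01, 6.23, 6.62 and 6.88 CPM for Fosb, and 3.26, 1.29, 1.09 and 1.08 for Egr2. For these genes GH males were thus the high group, and SI males lay near both female groups.

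The other male values named by the smallest p of their role did not pass the adjusted test. They were Chga (0.38), a granin gene, Pcsk1 (-0.34), a convertase gene of secretory granules, Bex3 (0.16), a p75-binding protein gene, Shc3 (-0.79), a neuronal Trk adaptor gene, Rps6ka2 (-0.23), a ribosomal S6 kinase gene, and Arnt2 (-0.30), with edgeR adjusted p-values between 0.295 and 0.3508. Leaving out SI males 25, 33 and 39 gave 0.01 for Chga, 0.03 for Bex3, -0.11 for Rps6ka2, -0.14 for Arnt2 and -0.27 for Pcsk1. Shc3 held 5.09 to 54.1 CPM in SI males and 34.8 to 61.6 in GH males, and its Log2FC was -0.35 (SE 0.0903) without SI males 25, 33 and 39. For Pcsk1 the female and male Log2FC differed in sign (0.10 and -0.34), and the interaction did not pass (unadjusted p = 0.000565, edgeR adjusted p = 0.5726).

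**Figure D4:**
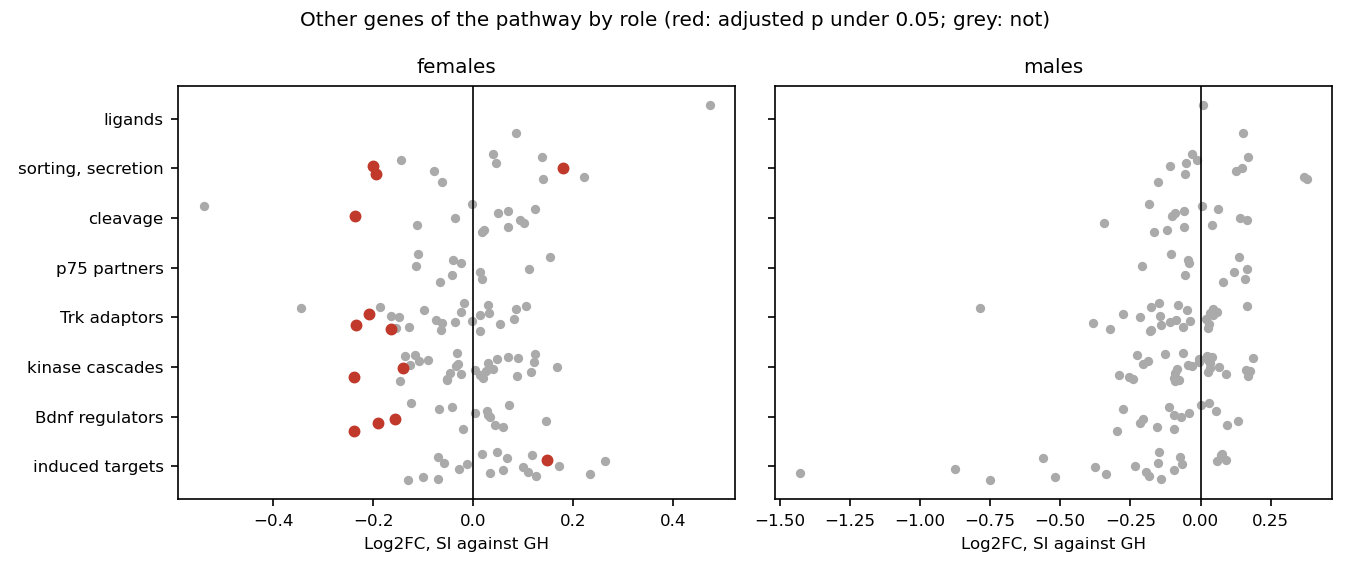
Log2FC of SI against GH (x axis, log2 scale, a different range in each panel) for the 125 other pathway genes by role (y axis), in females (left) and males (right), with 1 point per gene and genes past the adjusted test in red. The 13 red points are all in females, 11 to the left of 0 and 2 to the right.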

How the data were processed

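RNA was sequenced from the hippocampus of 30 mice. Per the study's methods and the submitters' processing notes, the authors trimmed reads with Trimmomatic 0.39, quantified them with Salmon 1.8.0 against GRCm39 (mm39) and used DESeq2 1.24.0. The deposited values are whole-number counts per gene without normalization, for 17477 genes with a total of at least 100 counts. Of the gene IDs 94.1% matched a symbol and 91.3% a transcript length. Coordinates and lengths are from GENCODE vM1 (NCBIM37) and promoter windows from RefSeq (GRCm38.p6), and neither was converted.

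Counts were filtered with filterByExpr (minimum count 10, minimum total 15), scaled by TMM and tested with edgeR 4.0.16 (quasi-likelihood test, R 4.3.3) in each sex, with surrogate variables from sva 3.50.0 (svaseq, number set with 20 permutations) and Benjamini-Hochberg adjustment over all genes. Sex differences were tested in 1 fit of the 4 groups. The scripts were tested on simulated data. Alternatives were DESeq2 1.42.0, limma 3.58.1 (voom), other filters, scalings and covariates, and leaving out mice. Summed CPM of 13 marker lists was compared by exact permutation tests. Correlations used log2 CPM with a prior count of 2. Counting error is largest for Ngfr, which has the lowest counts of the 7 genes. The labels call the samples separate mice, so p-values measure the spread between mice. GH mice shared cages that could not be entered in the fits, so any likeness of cage mates was not accounted for. The genes and lists were chosen with earlier results of these data known. The other pathway genes named are those called in females and, per role and sex, the gene with the smallest p. Results for a few of these genes are not reported here.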

Additional observations from a re-analysis of the deposited data

Results flagged for a closer look

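Within each group of each of the 7 genes, 28 groups in all, the highest or lowest mouse was tested for a gap to its neighbour that is large against the group's range, and 4 mice stood out, where chance alone gives about 1 in 20 groups. Ngfr was 5.13 CPM in GH female 71, and the next highest GH female held 3.31. Ntrk3 was 166 CPM in SI male 7, with 133 next. Vgf was 347 CPM in GH female 46, with 257 next, and 401 CPM in SI female 45, with 307 next. Leaving out GH female 46 brought the female Vgf difference past the adjusted test (Log2FC 0.34, edgeR adjusted p = 0.0406), and leaving out the other 3 mice changed no SI against GH call of the gene named with them.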

How the results depend on the processing

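No paired analysis was possible because animal numbers are not shared between groups. In females, edgeR was also fitted without surrogate variables or with the position digit of the titles as a factor in their place. The Ntrk2 Log2FC was then -0.23 and -0.22 and no longer passed. In both fits 0 of the 7 genes were called, and 0 other pathway genes were lower and 0 higher (main: 11 and 2). DESeq2 and voom without surrogate variables kept the Ntrk2 call and still called pathway genes in both directions. With 1 surrogate variable 1 pathway gene was higher, with 2 there were 7 lower and 1 higher, and with 4 there were 5 higher. DESeq2 with the same surrogate variables called Vgf as well (0.17, 2 of the 7) and 8 pathway genes as higher. Removing each library's trend with transcript length and GC called Vgf (0.23, 2 of the 7), 19 pathway genes as lower and 9 as higher. With at least 10 counts in every sample 0 were higher, and fitting both sexes together (4 groups) gave 7 lower and 0 higher. With voom, Ngfr turned to 0.09. Over these settings 0 to 1520 of all genes were called in females (main 624) and 0 to 304 in males (main 0).

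In males the direction turned for Ngfr without surrogate variables (-0.07), with 1 (0.00), with the position digit (-0.08) and with DESeq2 without them (-0.06). It turned for Ntrk3 with the position digit (-0.03) and without SI males 25, 33 and 39 (-0.01), for Vgf without these mice (-0.13), and for Sort1 with the trend removed (0.05) and in the fit of 4 groups (0.02). None of these values passed the test, DESeq2 giving no adjusted p for Ngfr. DESeq2 called 2 pathway genes lower with the surrogate variables, and 3 lower and 4 higher without. Without SI males 25, 33 and 39 the difference in marker sums turned for dentate granule cells (22.8 CPM), CA1 pyramidal cells (27.6), oligodendrocytes (-448), microglia (-9.56), choroid plexus (-446), leptomeningeal fibroblasts (-4.45) and striatum (-6.82).

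The interaction turned without surrogate variables for Bdnf (-0.11), Ntrk2 (0.08), Ntrk3 (0.01), Ngfr (0.05) and Vgf (0.03), and with DESeq2 without them for Bdnf (-0.13), Ntrk2 (0.06), Ngfr (0.04) and Vgf (0.02). It turned with the position digit for Bdnf (-0.01), Ntrk2 (0.06), Ntrk3 (0.06), Ngfr (0.17) and Vgf (0.15). It turned with DESeq2 and the surrogate variables for Bdnf (0.00) and Sort1 (-0.01), with voom for Ngfr (0.03) and Vgf (0.08), with the trend removed for Sort1 (-0.01) and Vgf (0.04), with no filter for Bdnf (-0.01), with at least 10 counts for Vgf (0.13) and without SI males 25, 33 and 39 for Vgf (0.21). None of the 7 genes passed under any of these. Between GH females and GH males, the calls were lost without surrogate variables (Bdnf -0.28, Ntrk2 0.17, 0 of 7 called) and without the 3 SI males (Bdnf -0.19, Ntrk2 0.16, 0 of 7 called), and DESeq2 called Vgf too (-0.39). The causes were not tested.

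With each mouse left out in turn, the number of the 7 called was 0 to 2 in females, 0 to 3 in males and 0 to 3 between GH sexes. The number of pathway genes was 1 to 18 lower and 0 to 6 higher in females, and 0 to 23 lower and 0 to 8 higher in males. In males the upper ends came without SI male 27. Over the same fits 88 to 1428 of all genes were called in females, 0 to 2413 in males and 117 to 2660 between GH sexes. In females Log2FC ranged from -0.24 to -0.16 for Ntrk2, -0.09 to 0.08 for Ngfr, 0.00 to 0.05 for Sort1 and 0.11 to 0.34 for Vgf. In males it ranged from 0.20 to 0.33 for Ntf3, -0.25 to -0.08 for Ntrk2, -0.02 to 0.16 for Ntrk3, -0.13 to 0.31 for Ngfr, -0.22 to 0.05 for Sort1 and 0.14 to 0.42 for Vgf. The interaction ranged from -0.08 to 0.09 for Bdnf, -0.20 to 0.02 for Ntrk3, -0.05 to 0.19 for Sort1 and -0.23 to 0.10 for Vgf. Between GH sexes the range was -0.36 to -0.23 for Bdnf, 0.15 to 0.24 for Ntrk2, -0.07 to 0.21 for Ngfr and -0.47 to -0.31 for Vgf. Over the alternatives that changed a setting, 238 Log2FC values of the 7 genes kept their direction and side of the threshold, 33 turned, 3 gained a call and 6 lost one, all given above.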

Other observations

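Markers of other cell types and regions, given as summed CPM of SI against GH, were compared in both sexes by two-sided exact permutation tests. Thalamic markers (5 genes) averaged 81.5 against 51.9 CPM in males (exact p = 0.0348), with a single SI male reaching 162, and 83.2 against 68.6 in females (exact p = 0.46). CA3 pyramidal markers averaged 283 against 258 CPM in males (exact p = 0.0415), and interneuron markers 754 against 658 (exact p = 0.0249). Without SI males 25, 33 and 39 the exact p was 0.0485 for thalamic, 0.352 for CA3 and 0.356 for interneuron markers. In females CA3 and interneuron markers gave exact p-values of 0.561 and 0.178.

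For the remaining lists the exact p in females and males was 0.262 and 0.528 for dentate granule cells, 0.311 and 0.336 for CA1 pyramidal cells, 0.0973 and 0.269 for oligodendrocytes, 0.119 and 0.131 for microglia, 0.416 and 0.441 for choroid plexus, 0.581 and 0.707 for leptomeningeal fibroblasts, 0.89 and 0.681 for forebrain cholinergic neurons and 0.616 and 0.90 for striatum. These p-values are not adjusted over the 13 lists and both sexes.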
